A study of Mus musculus with 16 samples.

Results

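The EGF receptor family and its ligands were followed at the mRNA level in cultured mouse brain microvascular endothelial cells (mBMEC). The group of genes was set by name as 9 members out of the 54193 genes in the files. They are the receptors Egfr, Erbb2 and Erbb3, the ligands Hbegf, Areg, Ereg, Tgfa and Nrg1, and the inhibitor Errfi1. The counts of all transcripts of each gene were added up in the 16 libraries. The cells were isolated from mice aged 8 to 10 weeks that carry a floxed Pdcd10 allele, the gene for Ccm3, and the transgene Cdh5(PAC)-CreERT2, whose Cre is made in endothelial cells and becomes active with 4-OH-tamoxifen (4-OHT). All groups carry the floxed allele and the transgene and went through puromycin selection. The KO cultures received 4-OHT and the WT cultures did not, so the loss of Ccm3 and exposure to 4-OHT cannot be told apart here. Each culture was grown from the brains of several mice. The groups were untreated WT cells (3 libraries), WT cells with 10 µM propranolol (WT+P, 2 libraries) or 100 nM rapamycin (WT+R, 2 libraries), untreated KO cells (3 libraries), and KO cells with the same doses of propranolol (KO+P, 3 libraries) or rapamycin (KO+R, 3 libraries), each drug for 24 h. Propranolol blocks beta-adrenergic receptors and rapamycin blocks mTORC1. The study also used lapatinib, a drug that inhibits the kinases of EGFR and ErbB2, but no library here comes from cells given lapatinib.

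As background, the ErbB receptors are tyrosine kinases that pair with each other when a ligand binds. Egfr binds Hbegf, Areg, Ereg and Tgfa, Erbb3 and Erbb4 bind neuregulins such as Nrg1, and Erbb2 binds no ligand and acts as the partner of the others. The ligands of Egfr are made as membrane proteins and are released by proteases of the Adam family, and the signal runs through the ERK and PI3K pathways, which induce inhibitors such as Errfi1, Spry and Dusp genes.

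The libraries held between 18.83 and 26.2 M counts. Pdcd10, which checks the labels, lay between 7.83 and 16.7 CPM (counts scaled to library size with TMM factors) in the 9 KO, KO+P and KO+R libraries. It lay between 27.7 and 60.8 CPM in 6 of the 7 WT, WT+P and WT+R libraries, but at 11.5 CPM in the library labelled WT replicate 1, which goes against its label. The 10 endothelial markers were all measured, with a summed level of 5850 to 11200 TPM (transcript abundance per length, scaled to a fixed total). The mural cell markers were summed to between 62.1 and 2670 TPM, most of it from Tagln and Acta2, while Kcnj8 and Abcc9, which define pericytes, reached 0.187 and 0.465 CPM at most. Libraries that share a replicate number across groups deviated from their group means in the same direction, so each comparison was also fitted with the replicate number as a block. Pdcd10 itself had a log2 fold change of −1.56 in KO against WT cells (adjusted p = 0.42 from edgeR), and −1.52 with the block (adjusted p = 0.119 from edgeR). It was thus not called either, and a gene that is not called may still differ. In bulk libraries such as these, fewer cells that make an mRNA and less of it per cell cannot be told apart.

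Per transcript length, Hbegf mRNA was the most abundant of the 9 members in 16 of 16 libraries, with a median of 81.9 TPM (range 40.9 to 154.0). Tgfa followed at 16 TPM (6.42 to 24.6) and Errfi1 at 12.9 TPM (7.58 to 78.2), and their order was not fixed, since Tgfa was above Errfi1 in 11 of 16 libraries. Nrg1, at 6.46 TPM (4.03 to 20.4), and Erbb2, at 6.39 TPM (4.64 to 9.27), were at a like level, with Nrg1 above Erbb2 in 10 of 16 libraries. Ereg had a median of 1.55 TPM (0.372 to 8.43) and was above Egfr in 15 of 16 libraries. Egfr itself had a median of 0.565 TPM (0.0761 to 3.91), Areg one of 0.287 TPM (0 to 0.797) and Erbb3 one of 0.0305 TPM (0 to 0.131). In these cells the receptor mRNA was thus mainly that of Erbb2, and the ligand mRNA mainly that of Hbegf.

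**Figure D1:**
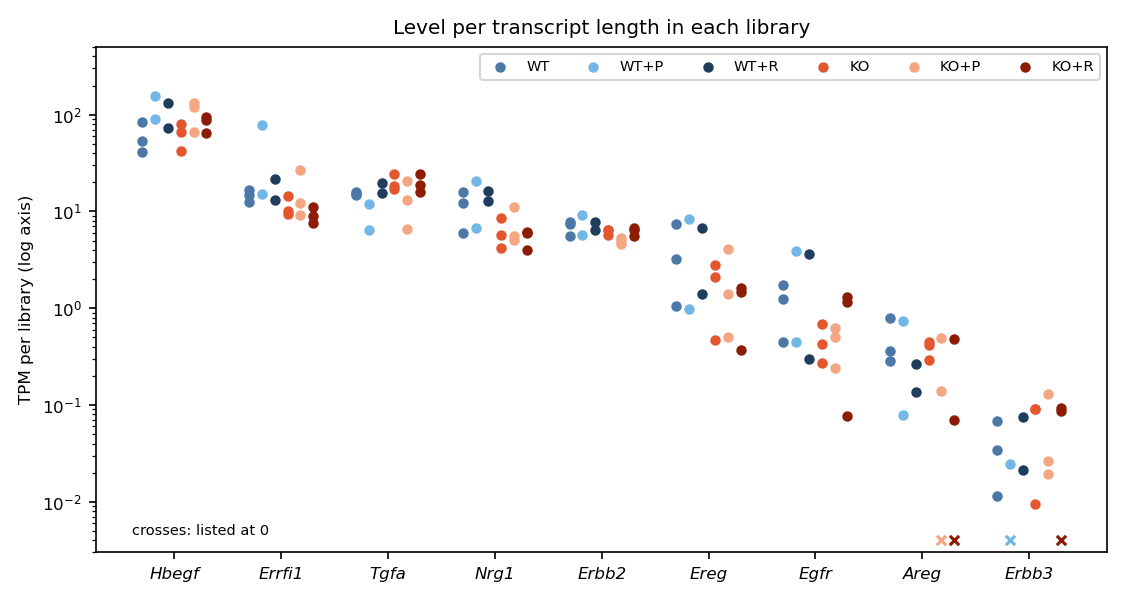
Level of each of the 9 members in each library (points, coloured by group) in TPM on a log axis, with crosses for libraries listed at 0. The members are in order of the median, except that Errfi1 is drawn before Tgfa. Hbegf lies between 40.9 and 154.0 TPM, and Erbb3 lies at or below 0.131 TPM in every library.

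The other receptor and the other ligands of the family, a list of 7 genes, were at the lower end of the scale. Erbb4 reached 0.0112 TPM, Nrg3 0.0179 TPM, Nrg2 0.161 TPM, Epgn 0.233 TPM, Btc 0.323 TPM, Nrg4 0.543 TPM and Egf 0.926 TPM in their highest library. Erbb3 and Erbb4, the receptors that bind Nrg1, were both near 0: Erbb3 (chr10:128403392-128425811 of GRCm39, minus strand) had 0 to 12 counts per library and 73 in all. It did not pass the filter on low counts and was not tested. Areg (chr5:91287451-91296291, plus strand) had 0 to 13 counts per library and 74 in all, passed the filter and was tested, but single counts move its values and its folds are not given. The other 7 members had at least 12 counts in every library, and so 8 of the 9 members were tested.

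**Figure D2:**
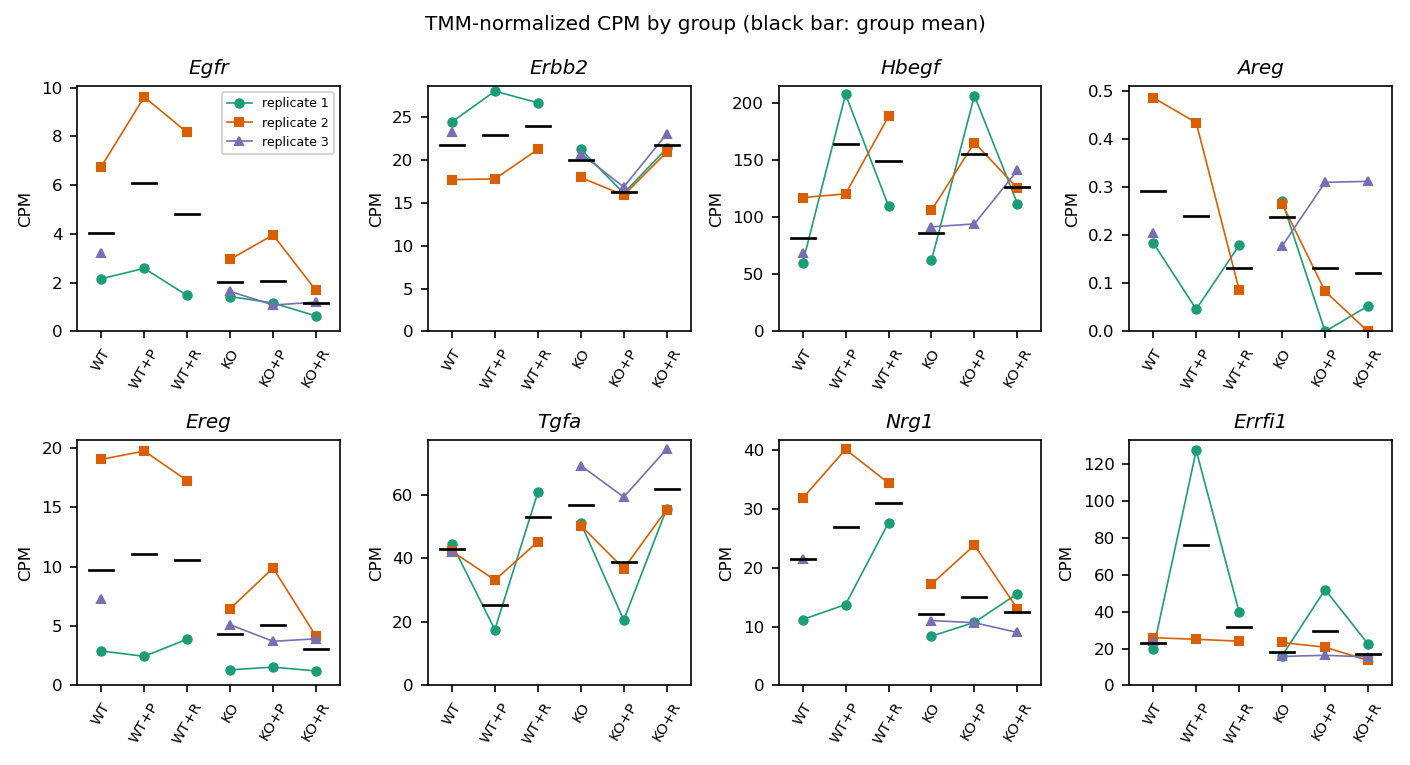
Level of the 8 tested members in CPM in each library by group, where lines join libraries of the same replicate number within WT or within KO cells, and black bars are group means. Replicate 2 is the highest WT, WT+P and WT+R library for Egfr and Ereg, and propranolol replicate 1 stands apart for Errfi1 at 127.2 CPM in WT+P and 51.9 CPM in KO+P.

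Egfr (chr11:16702198-16868158, plus strand) encodes the EGF receptor and was higher in WT than in KO libraries of the same replicate number. In WT replicates 1, 2 and 3 it lay at 2.16, 6.76 and 3.2 CPM, and in KO replicates 1, 2 and 3 at 1.43, 2.96 and 1.64 CPM. The ranges overlapped, since KO replicate 2 was above WT replicate 1. With propranolol, Egfr was at 2.59 and 9.62 CPM in WT+P replicates 1 and 2 and at 1.17, 3.96 and 1.08 CPM in KO+P replicates 1, 2 and 3. With rapamycin, it was at 1.48 and 8.16 CPM in WT+R replicates 1 and 2 and at 0.635, 1.68 and 1.2 CPM in KO+R replicates 1, 2 and 3. In each group with a replicate 2 library, that library was the highest. Group means ran from 6.11 ± 4.97 CPM in WT+P (SD, n = 2) through 4.82 ± 4.73 in WT+R (n = 2), 4.04 ± 2.41 in WT, 2.07 ± 1.64 in KO+P and 2.01 ± 0.828 in KO to 1.17 ± 0.524 in KO+R cells (n = 3 for these 4). For each pair of neighbours in this order, the ranges of 1 SD around the means overlapped.

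In edgeR's quasi-likelihood test, the log2 fold change of Egfr in KO against WT cells was −1.01 (standard error, SE, 0.73, adjusted p = 0.996), and with the replicate block −0.91 (SE 0.28, adjusted p = 0.182). Without the library labelled WT replicate 1, the fit with the block gave −0.91 (adjusted p = 0.241 from edgeR). Between KO+P and WT+P cells it was −1.56 (edgeR, SE 0.8, adjusted p = 0.82), and −1.4 with the block (adjusted p = 0.126). Between KO+R and WT+R cells it was −2.03 (edgeR, SE 0.82, adjusted p = 0.807), and −1.64 with the block (adjusted p = 0.0751). None of these passed the threshold, an adjusted p-value under 0.05 and a fold above 1.5. DESeq2 with the replicate block called Egfr in the comparisons with propranolol (−1.39, adjusted p = 0.0125) and with rapamycin (−1.65, adjusted p = 0.0027), but not in untreated cells (−0.92, adjusted p = 0.0824). That setting called 1.75% and 2.03% of all tested genes between KO+P and WT+P and between KO+R and WT+R cells.

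In fits without the block, the size of these differences depended on replicate 2 of the WT, WT+P and WT+R groups. Without WT replicate 2 the untreated difference was −0.41, without WT+P replicate 2 the one with propranolol was −0.32, and without WT+R replicate 2 the one with rapamycin was −0.31 (edgeR without the block). These fits kept replicate 2 of the KO groups, the highest library there, and so are not paired. Within the same number, the log2 differences were −0.57 and −0.93 in untreated replicates 1 and 3. In replicate 1 they were −1.1 with propranolol and −1.12 with rapamycin. Of the Egfr counts, 83.6% were assigned to Egfr-201, the full-length transcript of 1210 codons, and 14.4% to Egfr-202, a shorter one of 655 codons. The TPM of Egfr is less certain than its CPM, because a few counts on short transcripts weigh heavily per length: 4 counts on Egfr-205, a transcript of 446 bases, made up 0.784 and 0.916 TPM of the 1.3 and 1.15 TPM in KO+R replicates 2 and 3. Between KO+R and KO cells the log2 fold change was −0.77 (adjusted p = 0.776 from edgeR), and 0.89 with effective lengths as an offset (adjusted p = 0.839 from edgeR).

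Erbb2 (chr11:98303203-98328542, plus strand), the receptor without a ligand, varied least among the members, between 15.9 and 28.1 CPM. In WT replicates 1, 2 and 3 it lay at 24.5, 17.7 and 23.3 CPM, and in KO replicates 1, 2 and 3 at 21.3, 18 and 20.8 CPM. The log2 fold change in KO cells was −0.13, with a 95% confidence interval of −0.5 to 0.24 (edgeR). With propranolol, Erbb2 was at 28.1 and 17.8 CPM in WT+P replicates 1 and 2 and at 16.2, 15.9 and 16.9 CPM in KO+P replicates 1, 2 and 3. Every KO+P library was below every WT+P and every untreated KO library. Its log2 fold change was −0.49 against WT+P (edgeR, SE 0.19, adjusted p = 0.73) and −0.29 against KO (edgeR, SE 0.17, adjusted p = 0.48), and neither was called, also not with the block (adjusted p = 0.165 and 0.178). With rapamycin it was at 26.7 and 21.3 CPM in WT+R replicates 1 and 2 and at 21.4, 20.9 and 23.1 CPM in KO+R replicates 1, 2 and 3, which overlap the untreated libraries.

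Among the ligands, Hbegf (chr18:36637980-36649677, minus strand), heparin-binding EGF-like growth factor, was higher with either drug than in the untreated library of the same number. Untreated, it lay at 59.7, 117.0 and 68.2 CPM in WT replicates 1, 2 and 3 and at 62.1, 105.8 and 91.4 CPM in KO replicates 1, 2 and 3. The genotypes overlapped, with a log2 fold change of 0.08 and a 95% confidence interval of −0.66 to 0.82 (edgeR). With propranolol it lay at 207.1 and 120.2 CPM in WT+P replicates 1 and 2 and at 206.0, 165.0 and 94 CPM in KO+P replicates 1, 2 and 3. Every WT+P library was above every WT library, while KO+P replicate 3 lay within the KO range. The log2 fold change was 1.0 in WT cells (edgeR, SE 0.38, adjusted p = 0.473) and 0.84 in KO cells (edgeR, SE 0.34, adjusted p = 0.359).

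With rapamycin, Hbegf lay at 109.7 and 187.9 CPM in WT+R replicates 1 and 2 and at 111.8, 125.3 and 140.7 CPM in KO+R replicates 1, 2 and 3. Every KO+R library was above every KO library, and in WT cells the groups overlapped. Its log2 fold change was 0.87 in WT cells (edgeR, SE 0.38, adjusted p = 0.35) and 0.54 in KO cells (edgeR, SE 0.34, adjusted p = 0.582). No Hbegf difference was called, with or without the block. The comparisons with both drugs share the untreated libraries. Without the library labelled WT replicate 1, the values in WT cells were 0.82 with propranolol and 0.68 with rapamycin (edgeR without the block). Without WT+P replicate 1 the value with propranolol was 0.56, and without WT+R replicate 2 the value with rapamycin was 0.42. Of the exonic bases of Hbegf, 16.3% overlap another gene, and the libraries do not keep the strand.

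Ereg (chr5:91222157-91241505, plus strand), which encodes epiregulin, lay at 2.9, 19 and 7.3 CPM in WT replicates 1, 2 and 3 and at 1.32, 6.45 and 5.11 CPM in KO replicates 1, 2 and 3. It was lower in KO cells at each number, but the groups overlapped. It lay at 2.45 and 19.7 CPM in WT+P replicates 1 and 2, and at 1.54, 9.88 and 3.72 CPM in KO+P replicates 1, 2 and 3. It lay at 3.89 and 17.2 CPM in WT+R replicates 1 and 2, and at 1.22, 4.14 and 3.92 CPM in KO+R replicates 1, 2 and 3. As for Egfr, replicate 2 was the highest library of every group.

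The log2 fold change of Ereg in KO against WT cells was −1.18 (edgeR, SE 0.95, adjusted p = 0.996), and −1.08 with the block (edgeR, SE 0.27, adjusted p = 0.101). DESeq2 with the block called it at −1.08 (adjusted p = 0.0124), a setting that called 2.68% of all tested genes in this comparison. Between KO+R and WT+R cells it was −1.76 (edgeR, SE 1.05, adjusted p = 1.0), −1.72 with the block (edgeR, SE 0.31, adjusted p = 0.0622), and −1.71 in DESeq2 with the block, which called it (adjusted p = 0.000226). Between KO+P and WT+P cells it was −1.14 without and −1.01 with the block (adjusted p = 0.931 and 0.179 from edgeR). Without WT replicate 2 the untreated value was −0.25, without WT+R replicate 2 the value with rapamycin was −0.32, and without WT+P replicate 2 the value with propranolol was 1.04, in the other direction (edgeR without the block). These fits kept replicate 2 of the KO groups and so are not paired. Within the same number, the log2 differences were −1.09 and −0.51 in untreated replicates 1 and 3. In replicate 1 they were −0.64 with propranolol and −1.61 with rapamycin.

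Nrg1 (chr8:32303906-33374825, minus strand), the neuregulin whose receptors Erbb3 and Erbb4 were near 0 here, lay at 11.2, 31.8 and 21.4 CPM in WT replicates 1, 2 and 3 and at 8.37, 17.2 and 11 CPM in KO replicates 1, 2 and 3. It lay at 13.7 and 40.1 CPM in WT+P replicates 1 and 2, and at 10.7, 23.8 and 10.6 CPM in KO+P replicates 1, 2 and 3. It lay at 27.6 and 34.3 CPM in WT+R replicates 1 and 2, and at 15.6, 13 and 9 CPM in KO+R replicates 1, 2 and 3. Both WT+R libraries were above all KO+R libraries, while the other genotype pairs of groups overlapped. Its log2 fold change between KO and WT cells was −0.82 (edgeR, SE 0.47, adjusted p = 0.946; −0.79 and 0.299 with the block). Between KO+R and WT+R cells it was −1.31 (edgeR, SE 0.52, adjusted p = 0.797; −1.18 and 0.213 with the block). Leaving out each library gave −1.47 to −1.11 for the latter, and for the former −1.15 to −0.42, the last without WT replicate 2 and with KO replicate 2 kept. The counts of Nrg1 were spread over many transcripts, of which Nrg1-203 held 52.1%, Nrg1-213 18.2% and Nrg1-214 10.8%.

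Tgfa (chr6:86172041-86252728, plus strand), which encodes transforming growth factor alpha, stood apart from Ereg and Egfr in being higher in KO libraries. It lay at 44.5, 42.2 and 41.9 CPM in WT replicates 1, 2 and 3 and at 51.1, 50.4 and 69.2 CPM in KO replicates 1, 2 and 3, with no overlap. The log2 fold change was 0.41 (SE 0.32, 95% confidence interval −0.28 to 1.1, adjusted p = 0.996 from edgeR), and it was not called. With propranolol it lay at 17.6 and 33.2 CPM in WT+P replicates 1 and 2 and at 20.6, 36.8 and 59.3 CPM in KO+P replicates 1, 2 and 3. Both WT+P libraries were below all WT libraries, and KO+P and KO libraries overlapped. Its log2 fold change with propranolol was −0.76 in WT cells (edgeR, SE 0.37, adjusted p = 0.52) and −0.55 in KO cells (edgeR, SE 0.32, adjusted p = 0.48). With rapamycin it lay at 60.8 and 45.2 CPM in WT+R replicates 1 and 2, above all WT libraries, and at 55.6, 55.4 and 74.4 CPM in KO+R replicates 1, 2 and 3, which overlap the KO libraries.

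Errfi1 (chr4:150938376-150955402, plus strand) encodes the protein also called Mig6, which binds the kinase domain of EGFR and ErbB2 and inhibits it. Untreated, it lay at 19.6, 25.9 and 23.8 CPM in WT replicates 1, 2 and 3 and at 16.1, 23.3 and 15.7 CPM in KO replicates 1, 2 and 3. With propranolol it lay at 127.2 and 25 CPM in WT+P replicates 1 and 2 and at 51.9, 20.7 and 16.3 CPM in KO+P replicates 1, 2 and 3. Replicate 1 was thus far above its untreated counterpart in both genotypes, and the other propranolol libraries lay within the untreated range. With rapamycin it lay at 39.7 and 24 CPM in WT+R replicates 1 and 2 and at 22.5, 13.5 and 15.5 CPM in KO+R replicates 1, 2 and 3.

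The log2 fold change of Errfi1 with propranolol in WT cells was 1.72 (edgeR, SE 0.57, adjusted p = 0.42), the largest of any member with a drug. It was 0.11 without WT+P replicate 1 and 2.46 without WT+P replicate 2, and in the latter fit it was called (adjusted p = 0.0237 from edgeR). That fit, in which WT+P is a single library assumed to vary like the others, called 3.73% of all tested genes in this comparison. In KO cells the log2 fold change was 0.69 (edgeR, SE 0.52, adjusted p = 0.587). Between KO+P and WT+P cells it was −1.36 (edgeR, SE 0.57, adjusted p = 0.775), and 0.25 without WT+P replicate 1. The latter fit kept KO+P replicate 1 and so is not paired, and within replicate 2 the log2 difference was −0.27. Of its exonic bases, 8.2% overlap another gene.

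Over all members, none of the 8 tested was called in KO against WT cells by edgeR, where 0.00674% of all tested genes were called, and none with the block, where 0.182% were. An unadjusted p-value under 0.05 was reached by 0 members without the block and 3 with it (Egfr, Ereg and Nrg1), against 6.07% and 13.8% of all tested genes. The median log2 fold change was −0.31 over the 8 members and −0.01 over all tested genes. In the other genotype comparisons 0 members were called as well. The shares of all tested genes called were 0% without and 0.0876% with the block between KO+P and WT+P cells, and 0% and 0.0944% between KO+R and WT+R cells. There 2 members had an unadjusted p-value under 0.05 in each without the block, against 6.19% and 5.72% of all genes, and 4 and 3 members with it, against 13.8% and 10.7%. The medians over the members were −0.89 and −0.57, against −0.02 over all tested genes in both. DESeq2 without the block called 0 members in each of the 3 genotype comparisons, where it called 0.438%, 0.411% and 0.519% of all tested genes. With the block it called 1 member between KO and WT cells (Ereg), 1 between KO+P and WT+P cells (Egfr) and 2 between KO+R and WT+R cells (Egfr and Ereg), against 2.68%, 1.75% and 2.03% of all tested genes. The libraries of the groups did not overlap for 1 of the 8 members between KO and WT cells (Tgfa), 1 between KO+P and WT+P cells (Erbb2) and 2 between KO+R and WT+R cells (Nrg1 and Errfi1), which was the case for 13.2%, 16.6% and 19.2% of all tested genes.

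With the drugs, edgeR called 0 members in each comparison, without and with the block. For propranolol the share of all tested genes called was 0.00674% in WT and in KO cells (0.0809% and 0.142% with the block). For rapamycin it was 1.4% in WT and 1.51% in KO cells (4.56% and 4.98% with the block). An unadjusted p-value under 0.05 was reached by 2 members with propranolol in WT cells (Errfi1 and Hbegf, against 9.87% of all genes), 1 in KO cells (Hbegf, against 12.6%), 1 with rapamycin in WT cells (Hbegf, against 12.6%) and 0 in KO cells (against 12.5%). With the block, 2 members in WT and 3 in KO cells reached it with propranolol (against 13.4% and 25% of all genes), and 0 in WT and 1 in KO cells with rapamycin (against 20.4% and 23%). Groups did not overlap for 2 members with propranolol in WT cells and 1 in KO cells (21.2% and 18.7% of all genes), and for 2 members with rapamycin in WT cells and 1 in KO cells (28.6% and 24.1%). DESeq2 also called 0 members with a drug. It called 0.795% and 1.11% of all genes with propranolol in WT and KO cells (1.04% and 6.29% with the block), and 3.65% and 3.17% with rapamycin (6.6% and 7.6%). Whether a drug acted differently in the genotypes was tested as an interaction, and the adjusted p-value was 1.0 for each of the 8 members for both drugs, with 0 members at an unadjusted p-value under 0.05 (edgeR, without and with the block). For propranolol 0.721% of all genes were under it without and 2.84% with the block, and for rapamycin 0.762% and 1.93%, with 0% called in any of these fits. DESeq2 called 0 interactions among the members as well, and 0% and 0.00674% of all genes without the block and 0.0135% and 0.0472% with it.

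**Figure D3:**
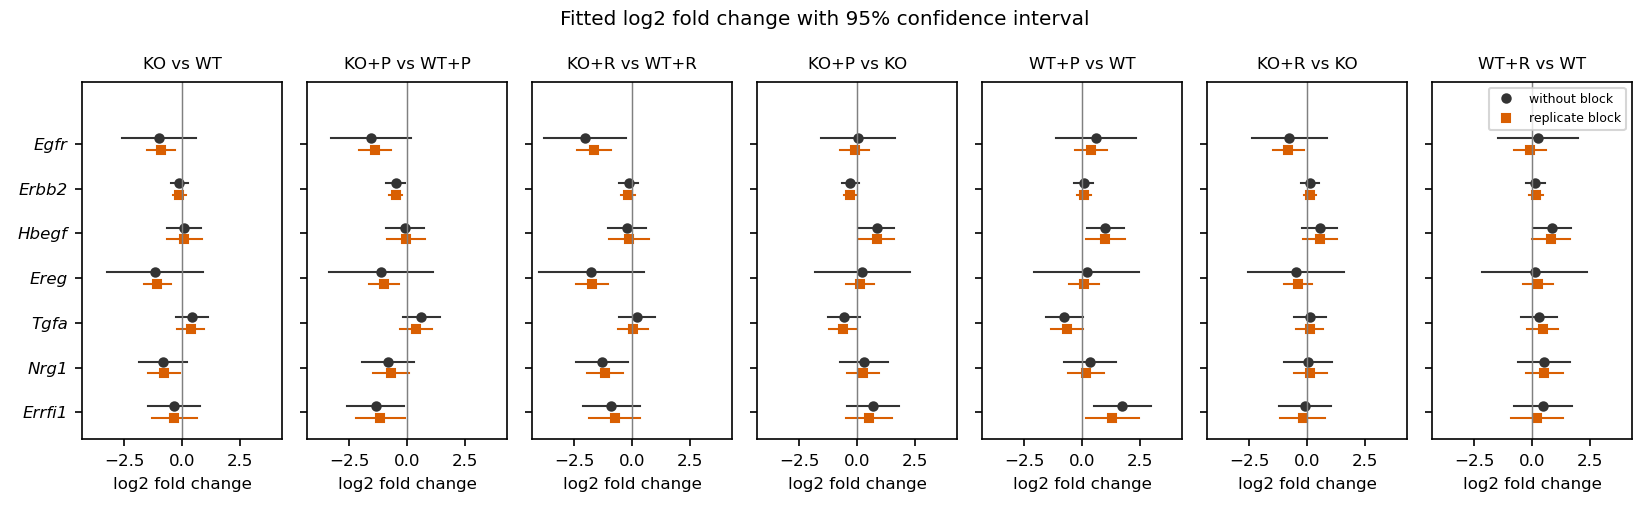
Log2 fold change of 7 members (Areg left out for its low counts) in 7 comparisons from edgeR, as points with 95% confidence intervals, without the replicate block (dark circles) and with it (orange squares). The block narrows the intervals of Egfr, Ereg and Nrg1, from 0.73 to 0.28 in the standard error of Egfr in KO against WT cells, and leaves that of Hbegf at 0.34.

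The order of the groups hides how closely the members followed the replicate number. The number accounted for 53.9% of the variance of log2 CPM for Egfr, 71% for Ereg and 41.8% for Nrg1, and the group for 40.3%, 24.9% and 38.3%. For Hbegf, Tgfa and Erbb2 the group accounted for more (48.5%, 53.2% and 56.2%) than the number (12.5%, 22.5% and 27.1%). In each split the number was entered before the group. Since WT+P and WT+R have no replicate 3, variance shared by both is counted with the number. Within a number, Egfr, Ereg, Nrg1 and Errfi1 were each lower in the KO library in 7 of 7 pairs, which are 3 untreated, 2 with propranolol and 2 with rapamycin. This held for 7.62% of all tested genes. The log2 differences in these pairs ranged from −2.22 to −0.57 for Egfr, from −2.03 to −0.51 for Ereg, from −1.39 to −0.36 for Nrg1 and from −1.29 to −0.15 for Errfi1. Pairs with the same number may come from the same culture, so the number of independent cultures may be smaller. Among the 3 untreated pairs, that of replicate 1 uses the library labelled WT replicate 1, whose Pdcd10 level of 11.5 CPM goes against its label. Tgfa was higher in the KO library in 6 of 7 pairs and Erbb2 lower in 6 of 7, and Hbegf was higher in 4 of 7. No member was higher in the KO library in 7 of 7 pairs, as 6.98% of all tested genes were.

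With propranolol, Hbegf was higher and Tgfa lower than in the untreated library of the same number in 5 of 5 pairs, which 14.6% and 15.4% of all tested genes also were. The log2 differences ranged from 0.04 to 1.79 for Hbegf and from −1.34 to −0.22 for Tgfa. Replicate 1 gave the extremes in both genotypes, with 1.79 and 1.73 for Hbegf, −1.34 and −1.31 for Tgfa, and 2.69 and 1.68 for Errfi1, where the other 3 pairs of Errfi1 lay between −0.17 and 0.05. With rapamycin, Hbegf, Tgfa and Erbb2 were each higher in 5 of 5 pairs, which 18.5% of all tested genes also were. These differences ranged from 0.24 to 0.88 for Hbegf, from 0.1 to 0.45 for Tgfa and from 0.01 to 0.26 for Erbb2. No member was lower in 5 of 5, as 22.9% of all tested genes were.

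**Figure D4:**
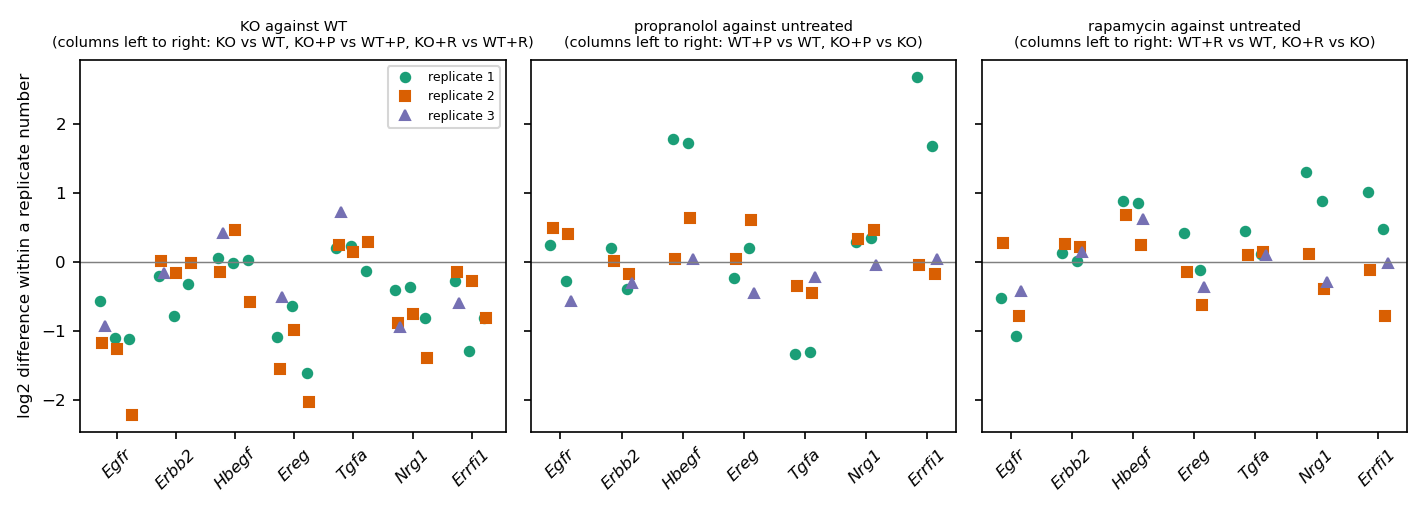
Log2 difference in CPM between libraries of the same replicate number for 7 members, KO against WT (left), propranolol against untreated (middle) and rapamycin against untreated (right), with a symbol for each number. Egfr, Ereg, Nrg1 and Errfi1 lie below 0 in 7 of 7 genotype pairs, among them that of the library labelled WT replicate 1. With propranolol, replicate 1 stands apart for Hbegf, Tgfa and Errfi1.

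Across the 16 libraries, which share groups and numbers, Egfr and Ereg went together with a Pearson r of 0.89 on log2 CPM, Ereg and Nrg1 with 0.8 and Egfr and Nrg1 with 0.79. Tgfa and Errfi1 went opposite ways, with −0.81. The gene most like Ereg over these libraries was Plcl1 (r = 0.96), that most like Nrg1 was Kcnmb1 (0.932), that most like Tgfa was Gas6 (0.961), and among those most like Egfr were Plxna3 (0.921) and Elovl4 (0.914). For Hbegf it was Fam107b (0.934), for Erbb2 Setd2 (0.931), for Errfi1 Flvcr1 (0.926) and for Areg Pde1a (0.818). These were picked as the highest among all tested genes, so a high value is given by the choice.

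Some markers of other cell types were, like Egfr, Ereg and Nrg1, highest in replicate 2 of the WT, WT+P and WT+R groups, and others were not. Krt19, a keratin of epithelial cells, lay at 0.368, 18.3 and 1.8 CPM in WT replicates 1, 2 and 3 and at 0.62, 3.23 and 2.04 CPM in KO replicates 1, 2 and 3, and was highest in WT+P replicate 2 at 23.6 CPM. In untreated replicates 1 and 3 Krt19 was thus higher in the KO library, where Egfr, Ereg and Nrg1 were lower. The 7 epithelial markers were summed to 0.838 to 27.1 TPM in WT, 0.161 to 33.3 in WT+P, 1.29 to 18.3 in WT+R, 0.944 to 5.13 in KO, 0.362 to 9 in KO+P and 1.04 to 2.68 TPM in KO+R libraries. Only 2 of them passed the filter, 1 had no count, and the defining markers Epcam and Krt8 reached 0.0462 and 0.342 CPM. The contractile genes Cnn1, at 0.046 to 75.9 CPM, and Tagln, at 37.8 to 1858 CPM, were likewise highest in replicate 2 of the WT, WT+P and WT+R groups, as were Myh11, Acta2 and Notch3. Other mural cell markers were not: Pdgfrb lay at 2.81, 1.72 and 4.84 CPM in WT replicates 1, 2 and 3 and at 4.7 and 3.05 CPM in WT+R replicates 1 and 2, and Rgs5 lay at 0.322, 0.299 and 0.943 CPM in WT replicates 1, 2 and 3. Of the 10 mural cell markers 8 were tested, and their summed level was 91.2 to 937 TPM in WT and 62.1 to 233 TPM in KO libraries, 436 to 1590 in WT+P and 115 to 488 in KO+P, and 1390 to 2670 in WT+R and 255 to 376 in KO+R libraries. The part of these cells or genes in the differences of Egfr, Ereg and Nrg1 was not tested.

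The promoters of the 4 members that were lower in the KO library in every pair are shown to let a reader see whether they share sequence. Each is the 250 bases before the start of the transcript of that gene with the highest mean TPM, 5′ to 3′ along the gene, on GRCm39. Capitals mark matches on either strand. The core of KLF and SP boxes was searched as CACCC and the GC box by the letters GGGCGG. The AP-1 site was searched loosely as TGANTCA, where N is any base, the cAMP response element by TGACGTCA and the TATA box by the letters TATAAA. The windows are chr11:16701948-16702197 (plus strand) for Egfr, chr5:91221907-91222156 (plus strand) for Ereg, chr8:32499569-32499818 (minus strand) for Nrg1 and chr4:150939272-150939521 (plus strand) for Errfi1.
Egfr: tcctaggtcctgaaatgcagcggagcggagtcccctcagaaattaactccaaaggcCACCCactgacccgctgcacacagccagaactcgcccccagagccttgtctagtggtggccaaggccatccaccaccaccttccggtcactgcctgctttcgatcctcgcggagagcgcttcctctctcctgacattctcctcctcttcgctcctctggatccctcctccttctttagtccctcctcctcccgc
Ereg: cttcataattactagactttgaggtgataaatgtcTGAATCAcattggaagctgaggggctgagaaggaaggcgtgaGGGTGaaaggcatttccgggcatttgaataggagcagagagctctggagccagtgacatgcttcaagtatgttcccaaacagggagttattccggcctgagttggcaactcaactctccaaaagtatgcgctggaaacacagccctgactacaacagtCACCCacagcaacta
Nrg1: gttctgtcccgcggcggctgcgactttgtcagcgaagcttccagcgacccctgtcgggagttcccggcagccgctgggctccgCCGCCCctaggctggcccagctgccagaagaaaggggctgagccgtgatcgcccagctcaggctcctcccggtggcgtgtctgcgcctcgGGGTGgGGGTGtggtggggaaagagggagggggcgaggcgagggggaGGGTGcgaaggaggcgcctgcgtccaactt
Errfi1: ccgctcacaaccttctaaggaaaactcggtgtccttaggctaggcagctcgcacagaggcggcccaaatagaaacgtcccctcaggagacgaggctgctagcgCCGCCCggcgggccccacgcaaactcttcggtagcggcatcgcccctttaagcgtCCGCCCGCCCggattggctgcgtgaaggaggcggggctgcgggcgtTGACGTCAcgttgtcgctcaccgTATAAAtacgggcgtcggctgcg

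None of the searched motifs was found in all 4 promoters. CACCC was found once in that of Egfr, 2 times in that of Ereg, 3 times in that of Nrg1 and not in that of Errfi1, and 54.7% of the 14837 promoters of tested genes hold it. The letters TGANTCA were found in the promoter of Ereg as TGAATCA, 215 to 209 bases before the start. With any base in the middle, 4.88% of all promoters hold them. The Errfi1 promoter held 3 GC boxes (44.6% of all promoters hold any), 2 of them overlapping each other. It also held the cAMP response element letters 46 to 39 bases before the start (1.71% of all promoters) and a TATA box 23 to 18 bases before it (8.3%). The Nrg1 promoter held 1 GC box. The G and C content was 60% for Egfr, 48% for Ereg, 70.8% for Nrg1 and 64.4% for Errfi1, where the median of all promoters was 56%. The Errfi1 window also holds annotated exons of the noncoding gene 1700045H11Rik on the other strand, and 1 base of the Nrg1 window lies in an exon of other Nrg1 transcripts. A match says only that the letters are there.

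Around the members, 60 further genes of the pathway were followed in 5 lists, of which 55 passed the filter. In untreated KO against WT cells, 0 of them were called, without and with the block (edgeR), where 0.00674% and 0.182% of all tested genes were. The 4 sheddases and iRhoms (Adam10, Adam17, Rhbdf1 and Rhbdf2), which release the ligands, had a median log2 fold change of −0.01, the 17 negative regulators one of −0.01, the 22 adaptors and kinases one of −0.04, and the 10 ERK response genes one of 0.29, where all tested genes had −0.01. Of the ERK response genes 7 lay above 0 and 1, higher in KO cells, had an unadjusted p-value under 0.05 (edgeR), against 6.07% of all tested genes. With the block 2 were higher and 1 lower at this level, against 13.8% of all tested genes. Of the 7 other receptors and ligands only 2, Egf and Btc, passed the filter, with a median of −0.56. With propranolol 0 of the 55 were called in WT or KO cells, without and with the block (edgeR). Of all tested genes 0.00674% were called in WT and in KO cells (0.0809% and 0.142% with the block). With the block, 25% of all genes had an unadjusted p-value under 0.05 in KO cells. Of the 17 negative regulators 6 were higher and 4 lower at this level, and of the 22 adaptors and kinases 2 and 3. In WT cells 5 of the 17 negative regulators were higher and 0 lower at it, against 13.4% of all genes.

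With rapamycin, Lrig1 was the gene of these lists that changed in both genotypes without and with the block. Lrig1 encodes a membrane protein that binds ErbB receptors and leads to their breakdown. It lay at 129.8, 73.6 and 128.0 CPM in WT replicates 1, 2 and 3 and at 24.1 and 18.5 CPM in WT+R replicates 1 and 2, with no overlap. It lay at 75.2, 53.6 and 43.7 CPM in KO replicates 1, 2 and 3 and at 14.9, 19.4 and 13.9 CPM in KO+R replicates 1, 2 and 3, again with no overlap. It fell by 2.38 on the log2 scale in WT cells (edgeR, SE 0.33, adjusted p = 0.00542) and fell by 1.84 in KO cells (edgeR, SE 0.28, adjusted p = 0.00693). In KO cells it was called in each of the 16 fits that left out a library, and in WT cells in 14 of 16, with adjusted p = 0.0566 and 0.0587 without WT+R replicates 1 and 2 (edgeR). It was also not called in WT cells when only the compared groups were fitted (adjusted p = 0.0852 from edgeR). Untreated KO cells lay below WT cells, at a log2 fold change of −0.94, which was not called (adjusted p = 0.483 from edgeR, 0.0859 with the block), and KO replicate 1 lay above WT replicate 2. No other of the 17 negative regulators was called in either rapamycin comparison without the block.

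With the replicate block, 4 more genes of the lists were called with rapamycin. Together with Lrig1 this made 4 of the 55 list genes called in KO and 4 in WT cells, where 4.98% and 4.56% of all tested genes were called, so nothing is read from the count itself. Ier3, an immediate early gene of the ERK response, rose to 366, 190.0 and 205 CPM in KO+R replicates 1, 2 and 3 from 129, 69.2 and 97.5 CPM in KO replicates 1, 2 and 3. Its log2 fold change was 1.35 in KO cells (adjusted p = 0.0002 from edgeR with the block, 0.135 without) and 1.15 in WT cells (adjusted p = 0.00119 with the block, 0.201 without). Pik3r1, the regulatory subunit p85 alpha of PI3K, fell by 0.61 on the log2 scale in KO cells (adjusted p = 0.00488 from edgeR with the block, 0.0587 without) and fell by 0.62 in WT cells (adjusted p = 0.0101 with the block, 0.0908 without). Groups did not overlap for Ier3 and Pik3r1 in either genotype. Spry4, an inhibitor of receptor tyrosine kinase signals, fell from 44.5, 32.8 and 27.7 CPM in KO to 16.7, 19.1 and 15.6 CPM in KO+R replicates 1, 2 and 3 (log2 fold change −0.99, adjusted p = 0.0175 from edgeR with the block, 0.121 without). In WT cells it had a log2 fold change of −0.92 with the block and was not called (adjusted p = 0.053 from edgeR). Dusp4, a phosphatase of ERK, rose in WT cells (log2 fold change 1.29, adjusted p = 0.0332 from edgeR with the block, 0.637 without), though WT and WT+R libraries overlapped, and in KO cells it had a log2 fold change of 0.48 (adjusted p = 0.326 with the block). The adjusted p-value of Dusp4 was 0.124 with the block once the library labelled WT replicate 1 was left out (edgeR).

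**Figure D5:**
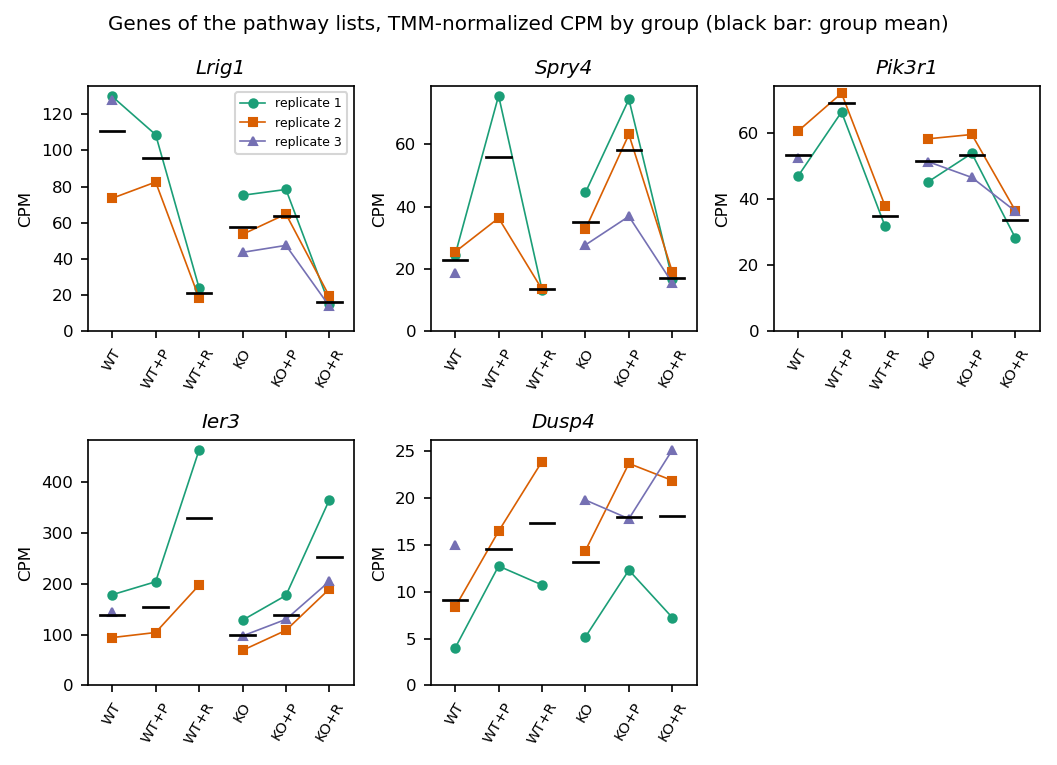
Level in CPM of the 5 genes of the pathway lists that were called with rapamycin, by library and group, with lines joining libraries of the same replicate number within WT or within KO cells and black bars for group means. Lrig1 lies between 13.9 and 24.1 CPM in the rapamycin libraries and between 43.7 and 129.8 CPM in all others.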

How the data were processed

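RNA was sequenced from 16 libraries of cultured mBMEC, in 6 groups set by genotype and drug as the labels give them. Per the study's methods, poly(A) RNA was read as paired ends without strand. The authors deposited, for each library, Salmon tables with an expected count (an estimated count of reads), a TPM and an effective length for each transcript; Salmon 1.5.2 is named in the submitters' processing notes, while the study's methods describe STAR, HTSeq and DESeq2 for its own analysis. The 140789 transcripts were matched by ID without version to GENCODE vM39 (GRCm39), which named 99.12% of them and held 99.43% to 99.61% of the counts, and 0 sample columns were left unused.

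Expected counts were summed per gene and rounded, and 14838 genes passed edgeR's filterByExpr. They were tested with edgeR's quasi-likelihood test (edgeR 4.0.16, limma 3.58.1, R 4.3.3) in 1 fit of all 6 groups with TMM scaling (factors 0.934 to 1.041). Calls needed a fold above 1.5 and an adjusted p-value (Benjamini-Hochberg, over all genes tested by edgeR) below 0.05. The fit had 10 residual degrees of freedom (8 with the block) and a biological coefficient of variation of 32.3% (19% with the block). Log2 CPM values, from which the differences within a number, the variance shares and the Pearson r were taken, use a prior count of 2. The fitted fold changes were left at the default setting of edgeR. Same-numbered libraries deviated together, with r of 0.19 to 0.62 for KO and WT and of 0.31 to 0.69 for the other compared groups, and the numbers are therefore read as pairs. The labels do not say that they mark a shared culture, and p-values measure the spread between these libraries.

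Alternatives were DESeq2 (1.42.0), DESeq2 size factors in edgeR, no filter, the replicate block, effective lengths as an offset, only the compared groups, and leaving out each library. The members were named by gene, and the pathway genes named are those called in either edgeR fit. The members and lists were chosen with earlier results of these data known. The genes most like each member were those with the highest Pearson r over the 16 libraries. For Egfr, 1 of the 3 genes taken by this rule is not reported here. Count depth limits Egfr, Areg and Erbb3. Motifs were searched in GRCm39 sequence.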

Additional observations from a re-analysis of the deposited data

Results flagged for a closer look

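The response of Erbb2 to propranolol went in opposite directions in the genotypes. Against the untreated library of the same number, it was higher by 0.2 and 0.01 on the log2 scale in WT replicates 1 and 2 and had differences of −0.39, −0.18 and −0.3 in KO replicates 1, 2 and 3. The interaction, KO+P against KO minus WT+P against WT, was −0.37 (edgeR, SE 0.26, adjusted p = 1.0), and −0.38 with the replicate block (edgeR, SE 0.18, adjusted p = 1.0). It did not pass the threshold in either fit.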

How the results depend on the processing

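Alternatives were compared for the 17 member results with an unadjusted p-value under 0.05 in either edgeR fit, none of which was called in the main fit. Of 408 alternative values, 400 kept direction and stayed uncalled, 5 were called only under the alternative and 3 changed sign. The size of the change was not part of this count. Egfr in KO+R against KO cells was 0.89 with effective lengths as an offset, where few counts on short transcripts weigh heavily. Errfi1 in KO+P against WT+P cells ran from −2.1 to 0.25 over the fits that left out a library, the last without WT+P replicate 1, and Ereg in the same comparison from −2.08 to 1.04, the last without WT+P replicate 2. In both of these the KO+P library of the same number was kept. The pair that remained had a log2 difference of −0.27 for Errfi1 and −0.64 for Ereg. The number of genes called moved far more, and the cause was not tested. In the order KO against WT, KO+P against KO, KO+R against KO, WT+P against WT, WT+R against WT, KO+P against WT+P and KO+R against WT+R, edgeR called 1, 1, 224, 1, 207, 0 and 0 genes, with 900, 1870, 1862, 1464, 1877, 918 and 849 at an unadjusted p-value under 0.05. The replicate block, which pairs libraries of the same number, gave 27, 21, 739, 12, 677, 13 and 14, and with the block and without WT replicate 1 the counts were 66, 22, 710, 0, 408, 8 and 32. In edgeR the block alone changed no call of a member, while in DESeq2 it added calls of Egfr and Ereg in genotype comparisons. DESeq2 gave 65, 164, 471, 118, 542, 61 and 77, and with the replicate block 397, 934, 1127, 154, 979, 260 and 301. Without the filter on low counts they were 5, 52, 239, 36, 263, 2 and 7. With effective lengths as an offset they were 2, 1, 152, 2, 154, 0 and 0, and with only the compared groups 0, 0, 274, 0, 9, 0 and 0. For the interactions with propranolol and rapamycin, edgeR called 0 and 0 (107 and 113 at an unadjusted p-value under 0.05), DESeq2 0 and 1, and DESeq2 with the block 2 and 7. Leaving out each library gave 0 to 2 genes in KO against WT, 1 to 332 in KO+P against KO (332 without KO+P replicate 3), 51 (without KO replicate 3) to 249 in KO+R against KO, 0 to 554 in WT+P against WT (554 without WT+P replicate 2), 25 (without WT+R replicate 1) to 266 in WT+R against WT, 0 to 3 in KO+P against WT+P and 0 to 0 in KO+R against WT+R. Depth limits Egfr, at 12 to 244 counts per library, and leaves Areg and Erbb3 without a usable fold.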

Other observations

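Some of the genes that mark mural, endothelial and macrophage cells also changed with rapamycin. In WT cells, the contractile gene Acta2 rose from 32.5, 169.7 and 61.8 CPM in WT replicates 1, 2 and 3 to 557.3 and 617.7 CPM in WT+R replicates 1 and 2, by a log2 fold change of 2.74 (edgeR, SE 0.61, adjusted p = 0.0469; 2.82 and 0.0176 with the replicate block). Calls made only with the replicate block in WT cells were a rise of Tagln (2.5, adjusted p = 0.035) and of Emcn, an endothelial glycoprotein (0.85, adjusted p = 0.0176), and a fall of Egfl7, a secreted endothelial factor (−0.7, adjusted p = 0.0111), all from edgeR. Of the 8 mural cell markers tested, 5 lay above 0 in WT+R against WT cells, and among the others Rgs5 lay at 0.322, 0.299 and 0.943 CPM in WT replicates 1, 2 and 3 and at 0.0895 and 0.043 CPM in WT+R replicates 1 and 2, and Notch3 at 1.43, 4.11 and 2.21 CPM in WT replicates 1, 2 and 3 and at 0.448 and 1.85 CPM in WT+R replicates 1 and 2. The macrophage gene Cd68 fell in WT (−1.39, adjusted p = 0.0389) and in KO cells (−1.55, adjusted p = 0.00869), and Csf1r, the receptor for colony stimulating factor, fell in KO cells (adjusted p = 0.0303), each from edgeR with the block. Csf1r had 12, 5 and 8 counts in KO replicates 1, 2 and 3 and 0, 1 and 0 counts in KO+R replicates 1, 2 and 3, so its fold is not given. Of the 8 microglia and macrophage markers only 4 were tested, and P2ry12 had no count. Other markers of this list did not fall throughout. Aif1 had 3, 3 and 2 counts in WT and 11 and 8 in WT+R libraries. Tmem119 had 4, 16 and 14 counts in KO and 1, 6 and 40 in KO+R replicates 1, 2 and 3. In the 16 libraries the summed level of fibroblast markers was 2.16 to 60.8 TPM, of astrocyte markers 0.692 to 4.95, of microglia and macrophage markers 3.08 to 41.6, of oligodendrocyte and Schwann cell markers 0.34 to 1.17 and of neuron markers 11.7 to 88.7 TPM. The part of these cells in the rapamycin differences was not tested.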
